A study of Mus musculus with 8 samples.

Results

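The 9 genes described here encode parts of the phagocyte NADPH oxidase (Cybb, Cyba, Ncf1, Ncf4, Rac2), the proton channel that works beside it (Hvcn1), the inducible nitric oxide synthase (Nos2), a mitochondrial superoxide dismutase (Sod2) and the transcription factor NRF2 (Nfe2l2). They were taken by name from the 20308 gene symbols in the count files, and all 9 were measured. No threshold on a measured value was applied, but earlier results of these data were known when they were chosen. RNA was sequenced from CD11b+ cells that had been pulled down with magnetic beads from the right brain hemisphere of 4 control and 4 CSF1 OE mice, all F1 offspring of C57Bl/6 and CD1 parents and 14 or 15 days old, with 1 library per mouse. CSF1 is the growth factor that signals through CSF1R, the receptor on which microglia depend for survival and division. In CSF1 OE mice a tTA-driven transgene makes some of the GFAP+ cells secrete more of it. The CD11b+ cells are thus exposed to the factor and are not the cells meant to make it. Which transgenes the control mice carried, and the age of each single mouse, were not given in the labels.

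In microglia and other phagocytes the NADPH oxidase transfers electrons from NADPH across a membrane to oxygen and releases superoxide. Its catalytic core is a membrane pair, gp91phox (Cybb) and p22phox (Cyba), which is silent until cytosolic subunits, among them p47phox (Ncf1) and p40phox (Ncf4), and a Rac GTPase join it. HVCN1 lets protons follow the electrons, NOS2 makes nitric oxide from arginine in activated macrophages, SOD2 turns superoxide into hydrogen peroxide in mitochondria, and NRF2, which KEAP1 marks for degradation, drives antioxidant genes. The comparison addresses whether CD11b+ cells exposed to extra CSF1 carry more or less RNA for these genes.

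RefSeq promoter windows, the 250 bases before the annotated start in GRCm38.p6, were found for 5 of the 9 genes (Cybb, Cyba, Ncf1, Sod2 and Nfe2l2). Those of the membrane pair and of its organizer Ncf1 are shown because these 3 genes encode proteins that work as 1 complex, while Cybb was highest in another library than Cyba and Ncf1. All 3 lie on the minus strand and are written 5′ to 3′ in the direction of the gene. Capitals mark matches to the letters searched, which were TGACNNNGC (the core of the antioxidant response element, to which NRF2 binds), GAGGAAGT (PU.1), TTCNNNGAA (STAT), GGGNNTTCC (NF-kB) and GAAANNGAA (IRF), on both strands. The windows are Cybb at chrX:9469325-9469574, Cyba at chr8:122432941-122433190 and Ncf1 at chr5:134229626-134229875.
Cybb: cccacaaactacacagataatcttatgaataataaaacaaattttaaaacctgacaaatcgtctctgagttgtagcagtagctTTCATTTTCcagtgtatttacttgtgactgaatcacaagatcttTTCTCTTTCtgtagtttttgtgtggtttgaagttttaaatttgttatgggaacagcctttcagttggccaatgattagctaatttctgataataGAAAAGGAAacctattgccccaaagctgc
Cyba: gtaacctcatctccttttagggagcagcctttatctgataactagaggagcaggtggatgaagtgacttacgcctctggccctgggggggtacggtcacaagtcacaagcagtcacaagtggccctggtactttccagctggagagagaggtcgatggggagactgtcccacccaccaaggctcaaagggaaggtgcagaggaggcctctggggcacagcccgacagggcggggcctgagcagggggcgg
Ncf1: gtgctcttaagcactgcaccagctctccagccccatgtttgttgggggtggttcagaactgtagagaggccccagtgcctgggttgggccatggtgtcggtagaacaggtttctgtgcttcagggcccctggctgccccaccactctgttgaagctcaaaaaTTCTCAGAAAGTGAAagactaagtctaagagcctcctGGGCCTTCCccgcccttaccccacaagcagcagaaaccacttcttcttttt
The Cybb window held 3 matches to the IRF letters, which begin 167, 123 and 29 bases before the start, and had a GC content of 34.0%. The Ncf1 window held a STAT match 88 bases and an IRF match 82 bases before the start, which overlap and stand as 1 run of capitals, and an NF-kB match 51 bases before it. The Cyba window, with a GC content of 60.0%, held no match. Among 32851 promoter windows of the same length the IRF letters were found in 7.13%, the STAT letters in 7.02% and the NF-kB letters in 4.98%. The core of the antioxidant response element was found in 10.2% of all windows and, among the 5, in that of Nfe2l2 itself. The PU.1 letters were found in 2.44% of all windows and in 0 of the 5. The Cybb window lies within the GENCODE gene, whose outermost annotated start is further upstream.

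Total expected counts ran from 12908195 to 15475488 in control and from 12053280 to 14356538 in CSF1 OE libraries. By these unscaled totals a count of 0 allows at most 0.1939 to 0.2489 CPM (counts scaled to a common library total), counting error only. The CPM values given for genes use TMM-scaled library sizes instead, on which these limits differ somewhat. The 12 microglia markers, of which 6 had a higher and 6 a lower mean in CSF1 OE (3 higher without mouse 2019), summed to between 23400 and 41100 CPM in the controls and to between 30100 and 42500 CPM in CSF1 OE. Control mouse 1934 had the lowest microglial sum of the 8 and the highest sums for neurons, oligodendrocytes, endothelial cells, monocytes and red blood cells, and CSF1 OE mouse 2019 had the highest microglial sum and the lowest sums for those 5 cell types. The 10 endothelial markers were all lower in CSF1 OE (1030 to 1670 against 519 to 1160 CPM), as were the 10 markers of border macrophages (2990 to 4090 against 2120 to 3240 CPM), and 7 of 8 monocyte markers (850 to 1270 against 615 to 784 CPM). Markers of neutrophils, which also make the phagocyte oxidase, summed to 280 to 554 CPM in the controls and 371 to 749 CPM in CSF1 OE. Of the 9 neutrophil markers tested, 8 had a log2 fold change above 0, which rested on mouse 2019: S100a8, for example, was at 40.2 CPM in that mouse and at 2.55 to 9.04 CPM in the other CSF1 OE mice, and without it the mean CPM was above that of the controls for 1 of the 9, Csf3r, which made up most of the sum. None of these markers was called. B cell markers stayed between 8.2 and 20.0 CPM with Pax5 at 0 in all libraries, and T and NK cell markers between 19.7 and 66.8 CPM with Ncr1 at 0. Most of the B cell sum was Cd79b (7.46 to 19.0 CPM). Most of the T and NK cell sum was Il7r (19.3 to 65.1 CPM), while Cd3e, Cd3d, Cd3g and Gzma were each at 0 in at least 1 library. Csf1 itself averaged 282 ± 98.7 CPM in the controls and 322 ± 107 CPM in CSF1 OE (SD, n = 4). Its log2 fold change of 0.19 was not significant in edgeR (adjusted p = 0.796). The transgene targets GFAP+ cells, and RNA of astrocytes was present in these libraries. The 9 astrocyte markers summed to 392 to 737 CPM in the controls and 328 to 753 CPM in CSF1 OE, with 3 higher and 6 lower. Gfap, among the 3, was at 17.0 ± 6.76 and 31.3 ± 13.5 CPM (log2 fold change 0.88, adjusted p = 0.253 in edgeR). The part of these cells in the Csf1 value was not tested.

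Of the 9 genes, none was differentially expressed between CSF1 OE and control. All 9 passed the filter on low counts, 7 had a higher and 2 (Cybb and Nos2) a lower mean in CSF1 OE, and their log2 fold changes ran from -0.69 for Nos2 to 0.40 for Rac2, with a median of 0.12 beside -0.03 over all 13407 genes tested. Differential expression was called by the quasi-likelihood test of edgeR at an adjusted p under 0.05 together with a fold below 0.7 or above 1.43. By this rule 0 of the 9 genes were called beside 0.440% of all genes. At an unadjusted p under 0.05 there was 1 gene, Rac2, in the higher direction, where 16.5% of all genes were, 10.1% higher and 6.44% lower in CSF1 OE. In none of the 9 did the 4 CSF1 OE libraries lie all above or all below the 4 control libraries, which 10.3% of all genes did (6.84% above and 3.45% below). In bulk RNA such as this, fewer cells of a type and less RNA per cell cannot be told apart.

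**Figure D1:**
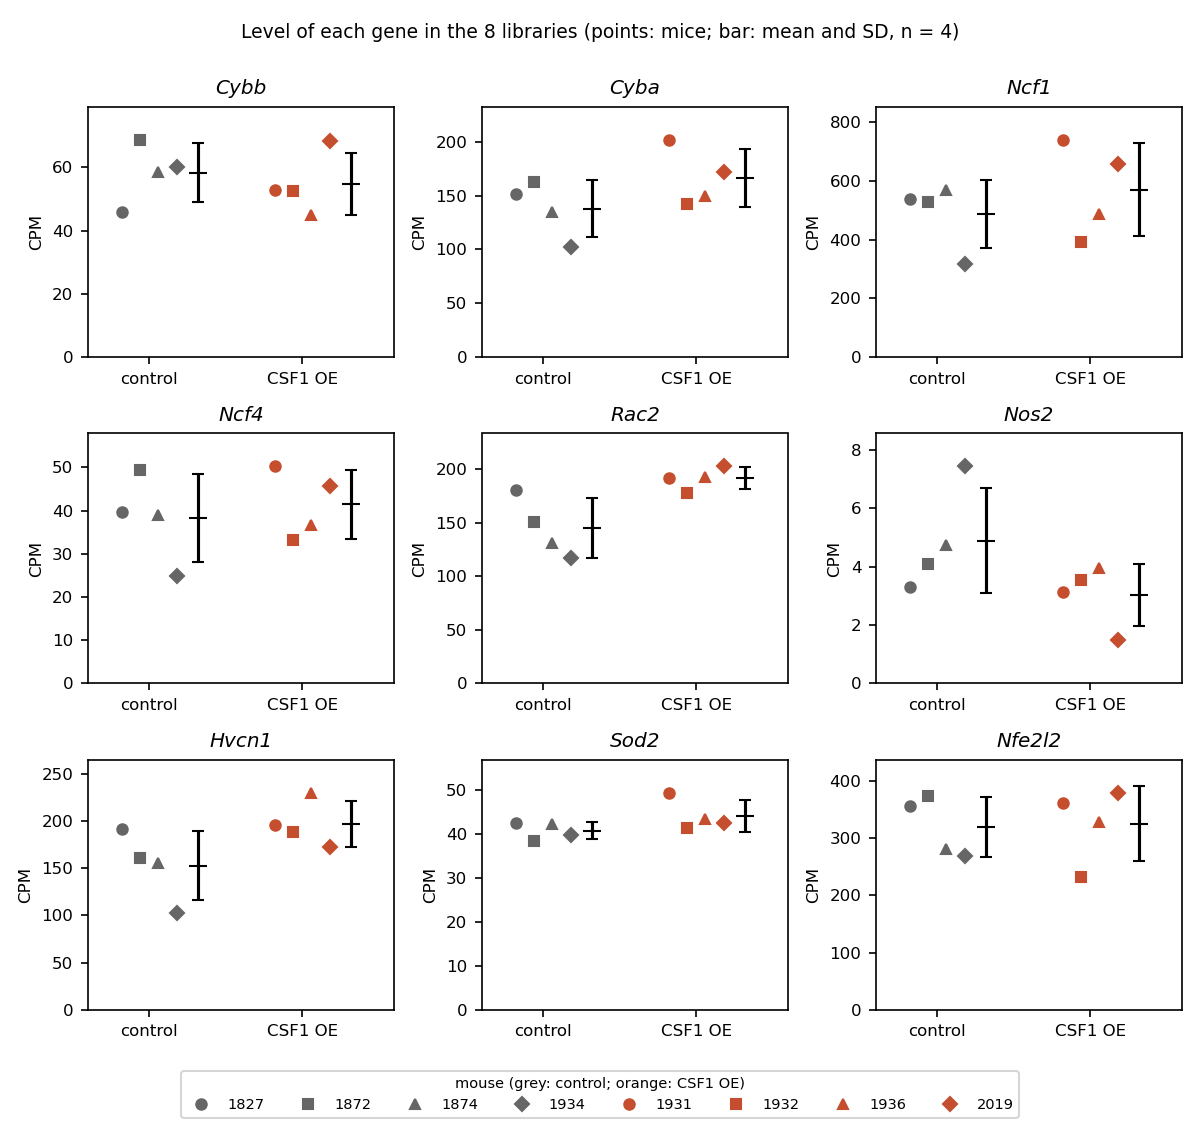
CPM (y axis, from 0) of each of the 9 genes in the 4 control (grey) and 4 CSF1 OE (orange) mice, with a symbol for each mouse and the mean and SD beside them. The genotypes overlapped in all 9 genes. The control diamond, mouse 1934, was the lowest of all 8 points for Cyba, Ncf1, Ncf4, Rac2 and Hvcn1 and the highest for Nos2.

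Of the membrane pair, Cybb had a lower and Cyba a higher mean in CSF1 OE, and neither difference passed the test. Cybb (chrX:9435252-9487771, minus strand), whose product carries the electrons, measured 46.0, 68.8, 58.6 and 60.0 CPM in control mice 1827, 1872, 1874 and 1934 and 53.0, 52.5, 44.9 and 68.2 CPM in mice 1931, 1932, 1936 and 2019 of the CSF1 OE group. The highest library was a control and the lowest a CSF1 OE library, but the second lowest was a control, and the 2 genotypes covered nearly the same range. The means were 58.3 ± 9.41 and 54.6 ± 9.78 CPM (SD, n = 4), a log2 fold change of -0.10 (95% interval -0.44 to 0.25) in edgeR (adjusted p = 0.779).

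Cyba (chr8:122424776-122432930, minus strand), whose product stabilizes gp91phox and anchors p47phox, measured 151, 163, 135 and 102 CPM in the control mice and 202, 142, 150 and 172 CPM in the CSF1 OE mice, in the same order of mice. CSF1 OE mice 1931 and 2019 lay above every control, and the other two lay among the controls. The means were 138 ± 26.4 and 166 ± 26.9 CPM, a log2 fold change of 0.27 (95% interval -0.10 to 0.64) in edgeR (adjusted p = 0.435). It was 0.16 without mouse 1934 and 0.17 without mouse 1931.

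The number of Cyba reads per Cybb read, a ratio within each library that does not depend on how libraries are scaled, was 3.29, 2.37, 2.30 and 1.71 in control and 3.81, 2.70, 3.34 and 2.52 in CSF1 OE. Both genotypes spread widely, with CSF1 OE mice 1931 and 1936 above all controls. The difference in log2 ratio was 0.37 and did not exceed the spread between mice in a two-sided exact permutation test (p = 0.143; 0.286 adjusted over the 4 ratios tested). The smallest p that 4 mice against 4 allow in this test is 0.0286.

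The cytosolic subunits varied as much within the genotypes as between them. Ncf1 (chr5:134220053-134229625, minus strand), the organizer that carries the phosphorylation switch of the complex, measured 540, 529, 568 and 317 CPM in the controls and 741, 391, 489 and 657 CPM in CSF1 OE. Control mouse 1934 stood far below the other controls, and CSF1 OE mice fell on both sides of them, 1931 and 2019 above and 1932 and 1936 below. The means were 488 ± 116 and 570 ± 159 CPM, a log2 fold change of 0.22 (95% interval -0.32 to 0.76) in edgeR (adjusted p = 0.671). Without control mouse 1934 the log2 fold change of Ncf1 was 0.08, without CSF1 OE mouse 1931 it was 0.07, and without both 1934 and 2019 it was -0.00. Ncf1 overlaps Gtf2ird2 on the opposite strand, which was measured at 36.2 and 38.7 CPM in the 2 genotypes, and whether the counting used strand was not stated.

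Ncf4 (chr15:78244801-78262580, plus strand), whose p40phox binds phosphatidylinositol 3-phosphate on phagosomes, measured 39.6, 49.5, 39.0 and 24.8 CPM in the controls and 50.3, 33.2, 36.6 and 45.8 CPM in CSF1 OE. As for Ncf1, mouse 1934 was the lowest of the 8 and mouse 1932 the lowest of the CSF1 OE mice. The log2 fold change was 0.12 (95% interval -0.36 to 0.60) in edgeR (adjusted p = 0.797), and it was -0.03 without mouse 1934 and 0.01 without mouse 1931. The ratio of Ncf4 to Ncf1 reads lay between 0.0687 and 0.0936 in control and between 0.0679 and 0.0849 in CSF1 OE, a difference in log2 ratio of -0.07 (two-sided exact permutation test, p = 0.6, adjusted p = 0.6).

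Rac2 (chr15:78559167-78572783, minus strand), the Rac GTPase of blood cells, had the smallest p of the 9. It measured 181, 151, 131 and 117 CPM in the controls and 192, 178, 193 and 203 CPM in CSF1 OE. The CSF1 OE mice lay close together and 3 of them were above every control, while mouse 1932 was just below the highest control, mouse 1827. The means were 145 ± 28.0 and 192 ± 10.3 CPM, a fold of 1.32 and a log2 fold change of 0.40 (SE 0.13, 95% interval 0.10 to 0.70), with an unadjusted p = 0.014 and an adjusted p = 0.191 in edgeR, and did not pass the threshold.

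The ratio of Rac2 to Rac1 reads, the latter being the Rac found in most cell types, was 0.355, 0.330, 0.285 and 0.285 in control and 0.349, 0.377, 0.369 and 0.361 in CSF1 OE. Here too 3 CSF1 OE mice were above every control, and the fourth, mouse 1931, was below the control mouse 1827. The difference in log2 ratio was 0.22 (two-sided exact permutation test, p = 0.0571, adjusted p = 0.229). Rac1 itself had 460 ± 41.6 CPM in the controls and 527 ± 40.0 CPM in CSF1 OE (log2 fold change 0.20, adjusted p = 0.373 in edgeR).

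Hvcn1 (chr5:122206804-122242297, plus strand) measured 192, 161, 155 and 103 CPM in the controls and 196, 188, 230 and 172 CPM in CSF1 OE. CSF1 OE mice 1931 and 1936 lay above all controls, control mouse 1827 lay above the other CSF1 OE mice, and mouse 1934 was again the lowest. The means were 153 ± 37.0 and 197 ± 24.6 CPM, a log2 fold change of 0.36 (95% interval -0.04 to 0.77) in edgeR (adjusted p = 0.345). Hvcn1 overlaps Tctn1 on the opposite strand, at 13.5 and 10.7 CPM.

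Nos2 (chr11:78920787-78960254, plus strand) was the lowest of the 9 in reads, with 17 to 126 counts in a library. It measured 3.29, 4.08, 4.76 and 7.45 CPM in the controls and 3.12, 3.53, 3.95 and 1.50 CPM in CSF1 OE. The highest value was that of control mouse 1934 and the lowest that of CSF1 OE mouse 2019, and the other 6 mice lay together, with control mouse 1827 below CSF1 OE mice 1932 and 1936. The means were 4.90 ± 1.81 and 3.03 ± 1.07 CPM, a log2 fold change of -0.69 (95% interval -1.48 to 0.11) in edgeR (adjusted p = 0.367). Without mouse 1934 it was -0.40, without mouse 2019 it was -0.47, and without both -0.18. These are the mice at the ends of the sums of endothelial, neuronal and red blood cell markers given above, and the part of those cells in the Nos2 value was not tested.

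Sod2 (chr17:13006846-13040063, plus strand) was the steadiest of the 9. It measured 42.6, 38.5, 42.3 and 39.9 CPM in the controls and 49.5, 41.4, 43.4 and 42.6 CPM in CSF1 OE, and a single CSF1 OE mouse, 1931, stood clearly above the rest. The means were 40.8 ± 1.99 and 44.2 ± 3.63 CPM, and the log2 fold change was 0.12 with a narrow interval (-0.08 to 0.31) in edgeR (adjusted p = 0.531). Its ratio to Sod1, the dismutase of the cytosol, differed by -0.11 in log2 between the genotypes (two-sided exact permutation test, p = 0.429, adjusted p = 0.571).

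Nfe2l2 (chr2:75675513-75704641, minus strand) measured 355, 373, 280 and 268 CPM in the controls and 360, 232, 327 and 379 CPM in CSF1 OE, so that the CSF1 OE mice held both the lowest and the highest value. The means, 319 ± 52.9 and 324 ± 65.4 CPM, gave a log2 fold change of 0.02 (95% interval -0.37 to 0.42) in edgeR (adjusted p = 0.953). Keap1, its inhibitor, had a log2 fold change of 0.01 (95% interval -0.23 to 0.26; adjusted p = 0.957 in edgeR), which was -0.0047 with upper-quartile scaling. In both genes the interval excludes a 1.43-fold difference in either direction.

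**Figure D2:**
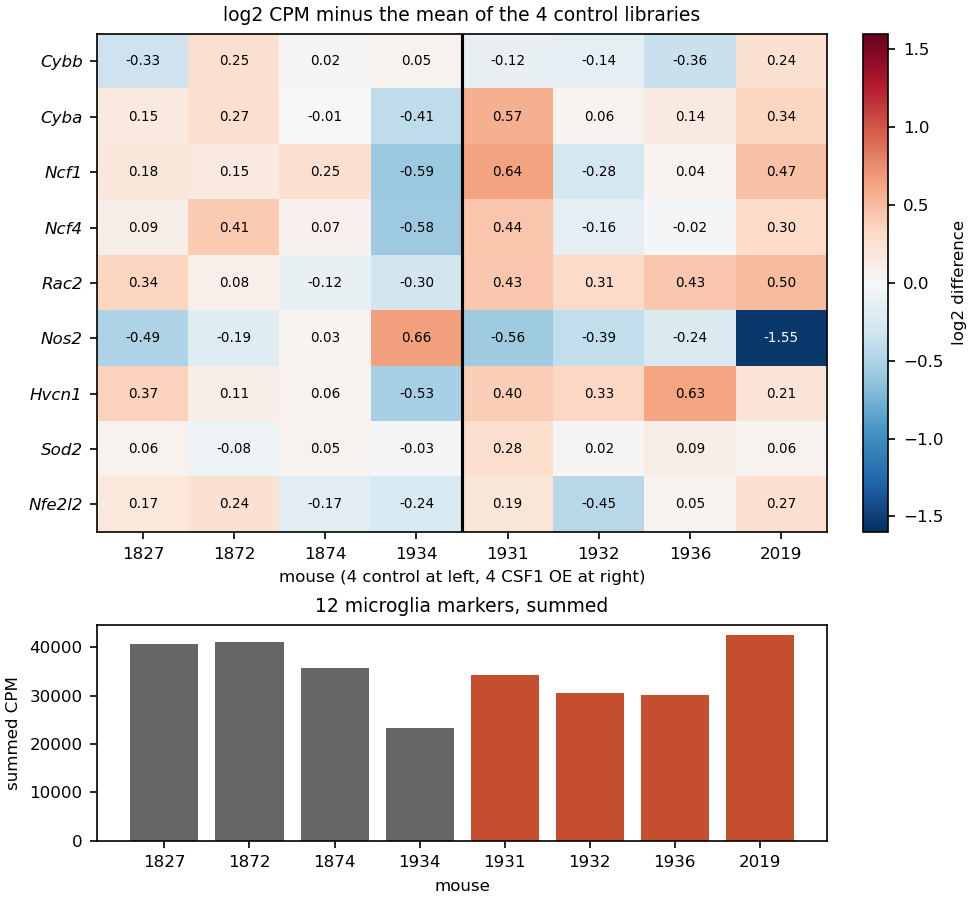
Upper panel: log2 CPM of each of the 9 genes in each mouse minus the mean of the 4 control libraries (color and printed number). Lower panel: summed CPM of the 12 microglia markers in the same mice, as bars from 0. Mouse 1934, with the lowest marker sum at 23400 CPM, was lowest in 5 genes, and mouse 2019, with the highest at 42500 CPM, was lowest in Nos2 and highest in Rac2 and Nfe2l2.

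Across the libraries, single mice stood at the ends of several genes at once. Control mouse 1934 had the lowest level of all 8 mice in 5 genes (Cyba, Ncf1, Ncf4, Rac2 and Hvcn1) and the highest in Nos2. CSF1 OE mouse 1931 was the highest in 4 (Cyba, Ncf1, Ncf4 and Sod2), and mouse 1932 was the lowest CSF1 OE mouse in 6. Without mouse 1934, 5 of the 9 had a higher mean in CSF1 OE, and without both 1934 and 2019 there were 4 of 9. The log2 fold change without both was 0.14 for Cyba, 0.29 for Rac2 and 0.28 for Hvcn1. When libraries were instead scaled by the sum of the microglia markers, an alternative added after the data had been seen, 7 of 9 were higher and Rac2 (log2 fold change 0.43, unadjusted p = 0.022) and Hvcn1 (0.44, unadjusted p = 0.041) were under 0.05 in edgeR before adjustment, as were 4.8% of all genes, with adjusted p-values of 0.872 and 0.982.

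The animal numbers fell into ranges that overlapped with the genotypes. Mice 1931 to 1936 were 1 control and 3 CSF1 OE mice, and the mice with other numbers were 3 control and 1 CSF1 OE mouse. The labels name no batch, and what the numbers stand for was not given. Within both ranges every CSF1 OE mouse lay above every control for Cyba, Ncf1 and Rac2, which 19.8% of all genes did, and below for Nos2, as for 23.2% of all genes. With a range term in edgeR, Rac2 had a log2 fold change of 0.54 (SE 0.13, adjusted p = 0.0349) and Nos2 of -1.21 (SE 0.23, adjusted p = 0.0261), and both were called, as were 9.50% of all genes. Of the 9 genes, 5 then had an unadjusted p under 0.05 (Cyba, Ncf1, Rac2, Nos2 and Hvcn1), beside 32.6% of all genes. In this fit the control level in the range 1931 to 1936 rests on mouse 1934 alone, and the CSF1 OE level in the other range on mouse 2019 alone. Cybb was at -0.01, Ncf4 at 0.39, Sod2 at 0.11 and Nfe2l2 at 0.18, with adjusted p-values from 0.201 to 0.969.

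**Figure D3:**
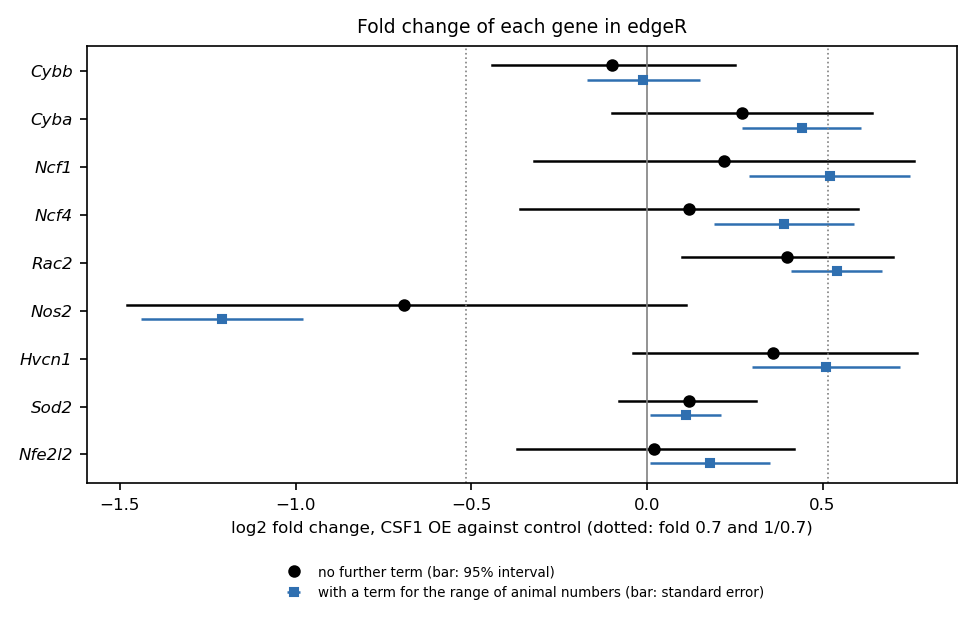
Log2 fold change (x axis, CSF1 OE against control) of the 9 genes in edgeR, without a further term (black, bars are 95% intervals) and with a term for these number ranges (blue, bars are standard errors). Dotted lines mark folds of 0.7 and 1/0.7. Without the term 1 interval, that of Rac2, left out 0, and with the term Ncf1, Rac2 and Nos2 lay beyond the dotted lines, of which Ncf1 did not pass the test.

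Per kilobase of annotated exon, on which scale genes can be set beside each other, the 9 genes differed widely in level. In control mice Cyba stood at 186 and Ncf1 at 169 CPM per kilobase, followed by Nfe2l2 at 129, Hvcn1 at 50.9, Rac2 at 47.8, Ncf4 at 26.1, Cybb at 12.3, Sod2 at 6.97 and Nos2 at 1.14 CPM per kilobase. For scale, Rac1 was at 109 and Sod1 at 106 CPM per kilobase. With these genes in the order, each gene was above the next in all 4 control mice, except for Cyba over Ncf1, Rac1 over Sod1 and Hvcn1 over Rac2, which held in 3 of 4. CSF1 OE mice gave the same order, with Rac1 and Sod1 level at 125 CPM per kilobase. The lengths are those of all annotated exons of a gene joined, so a gene expressed mainly from a short transcript is set too low on this scale.

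**Figure D4:**
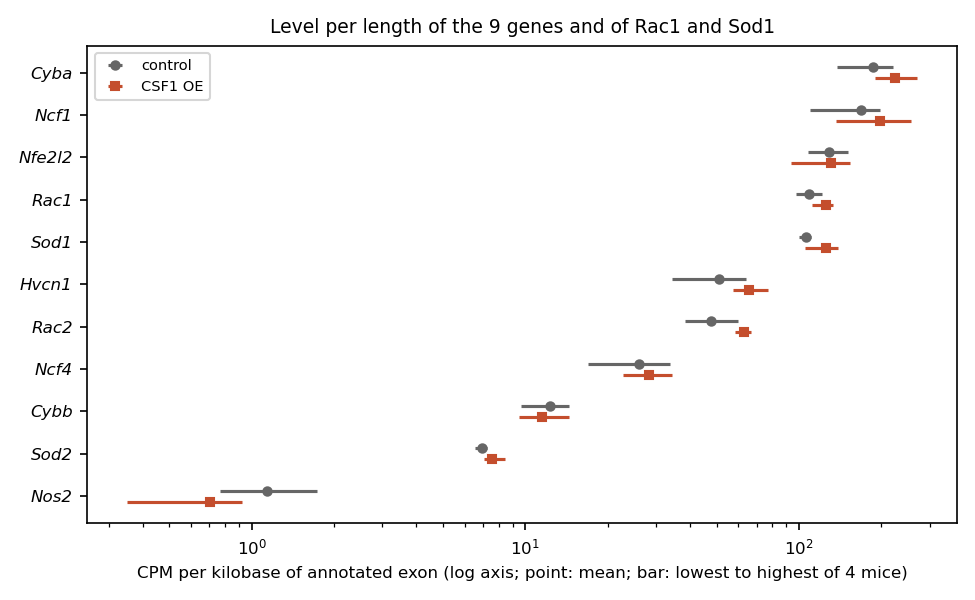
CPM per kilobase of annotated exon (x axis, log scale) of the 9 genes and of Rac1 and Sod1, with points at the mean and bars from the lowest to the highest of 4 mice in control (grey) and CSF1 OE (orange). Cyba was highest at 186 and Nos2 lowest at 1.14 in control, and the genotypes kept the same order.

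For Cybb, the likeness of other genes was measured as the root mean square difference in log2 CPM over the 8 libraries, each gene centred on its own mean. The nearest of 13406 genes were Gm4631 (0.0736), Ces2b (0.0869) and Gm8898 (0.0906). The partner genes were not near it, as Cyba ranked 7522 (0.345), Ncf4 7423 (0.342) and Ncf1 8913 (0.412). Sod2, the nearest of the other 8 genes, ranked 4833 (0.276) and Nos2, the farthest, 11356 (0.648). The measure also depends on how much a gene varies between mice. A steady gene such as Sod2 can therefore rank nearer than others without rising and falling with Cybb. Relative to its own mean, Cybb was at 0.10 in mouse 1934 and -0.08 in mouse 1931, where Ncf1 was at -0.70 and 0.53.

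The other genes of the pathways were taken from 6 lists, in which 98 of 107 genes could be tested. Of these, 63 had a higher and 35 a lower mean in CSF1 OE, the median log2 fold change was 0.09, and 0 were called. Over all genes tested 44.8% had a higher mean and 0.440% were called. At an unadjusted p under 0.05 in edgeR there were 27 of the 98, of which 22 were higher and 5 lower, where all genes had 16.5%, with 10.1% higher and 6.44% lower.

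Among 13 other genes of the oxidase family, 6 were tested, with 4 higher, 2 lower and a median of 0.19. The largest difference downward was that of Nox4, a constitutively active relative, at 1.71 ± 0.721 and 1.16 ± 0.666 CPM (log2 fold change -0.53, adjusted p = 0.636 in edgeR). The remaining family members were too low to test. Nox3 and Noxa1 had 0 counts in all 8 libraries, Nox1 at most 1, Duoxa2 at most 1, Duox1 at most 3 and Duox2 at most 4 counts in a library. Cybc1, a chaperone of gp91phox, was not matched to a symbol and was not analysed here.

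The 15 kinases, exchange factors and inhibitors upstream of the oxidase were all tested, with 12 higher and 3 lower in CSF1 OE and a median of 0.09. Arhgdib, which holds Rac and related GTPases in the cytosol of blood cells, had the largest difference, 163 ± 40.6 against 233 ± 30.3 CPM (log2 fold change 0.52, adjusted p = 0.204 in edgeR). Its libraries showed the same extremes as those of Rac2, with 119 CPM in mouse 1934 and 269 CPM in mouse 2019. Vav3, an exchange factor for Rac, was at the other end, with all CSF1 OE mice below the control mean (log2 fold change -0.44, adjusted p = 0.34 in edgeR).

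In nitric oxide synthesis and arginine handling 13 of 15 genes were tested, 7 higher and 6 lower, with a median of 0.02. Arg2 (2 to 17 counts) and Gchfr (1 to 8 counts) were too low to test. Nos3, the endothelial synthase, measured 43.6, 50.6, 62.2 and 60.0 CPM in the controls and 29.2, 29.2, 36.5 and 16.9 CPM in CSF1 OE, so that all CSF1 OE mice lay below all controls. Its log2 fold change was -0.95 (95% interval -1.44 to -0.46) with an adjusted p = 0.0842 in edgeR, and the 10 endothelial markers moved the same way, from sums of 1030 to 1670 to sums of 519 to 1160 CPM. Their part in the Nos3 value was not tested.

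Of the genes around tetrahydrobiopterin, the cofactor of nitric oxide synthases, none passed the test. Gch1, which catalyses the first step of its synthesis, measured 8.08 ± 1.18 and 12.1 ± 2.28 CPM (log2 fold change 0.58, adjusted p = 0.168 in edgeR), with 1 CSF1 OE mouse just below the highest control. Pts, the next enzyme, measured 20.0 ± 2.54 and 27.8 ± 2.90 CPM (log2 fold change 0.48, adjusted p = 0.117), and Qdpr, which regenerates the cofactor, 37.5 ± 2.01 and 42.3 ± 1.32 CPM (log2 fold change 0.17, adjusted p = 0.299). Spr, the last enzyme of the synthesis, overlapped between the genotypes (log2 fold change 0.10, adjusted p = 0.789). In Pts and Qdpr all 4 CSF1 OE mice lay above all 4 controls.

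The list that removes superoxide and peroxide held 29 tested genes, 20 higher and 9 lower, with a median of 0.17. Prdx4, the peroxiredoxin of the endoplasmic reticulum, measured 37.8, 27.5, 26.4 and 28.7 CPM in the controls and 43.7, 49.7, 46.2 and 47.3 CPM in CSF1 OE, without overlap. Its log2 fold change was 0.63 (95% interval 0.36 to 0.91) with an adjusted p = 0.0558 in edgeR, just above the threshold of 0.05. Prdx5, found in mitochondria and peroxisomes, had 87.3 ± 4.40 and 122 ± 14.3 CPM (log2 fold change 0.48, adjusted p = 0.0558 in edgeR).

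In 4 more genes of this list the genotypes did not overlap, all with higher levels in CSF1 OE. These were Prdx1 (log2 fold change 0.36, adjusted p = 0.0901), Glrx, a glutaredoxin (0.43, adjusted p = 0.0986), Prdx3 of mitochondria (0.22, adjusted p = 0.192) and Msrb1, a methionine sulfoxide reductase (0.26, adjusted p = 0.379). That made 6 of 29 genes without overlap and above, beside the 6.84% of all genes given above. Gpx8 had the largest difference downward, 9.65 ± 1.42 against 5.74 ± 2.59 CPM (log2 fold change -0.74, adjusted p = 0.262 in edgeR), and was lowest in mouse 2019.

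The 24 genes commonly induced by NRF2 divided into 14 higher and 10 lower with a median of 0.03. Txnrd1, a thioredoxin reductase, was at the upper end with 68.8 ± 7.15 and 97.9 ± 25.5 CPM (log2 fold change 0.51, adjusted p = 0.203 in edgeR), and Gsta4, a glutathione transferase, at the lower end with 21.1 ± 4.78 and 13.4 ± 4.87 CPM (log2 fold change -0.64, adjusted p = 0.292). All CSF1 OE mice lay above all controls for Pgd and Taldo1 of the pentose phosphate pathway, which supplies NADPH (log2 fold changes 0.36 and 0.28, adjusted p = 0.167 and 0.108), and for Esd (0.23, adjusted p = 0.189). Hmox1, chosen for mention after its values were seen, spread most, from 149 to 833 CPM, both in CSF1 OE mice.

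Of 11 partners and regulators of NRF2, 6 were higher and 5 lower, with a median of 0.01. Maff, a small MAF protein, measured 44.5 ± 8.09 and 69.4 ± 7.76 CPM (log2 fold change 0.64, adjusted p = 0.0752 in edgeR) and Sqstm1, the p62 protein that can hold KEAP1, 341 ± 29.9 and 422 ± 36.0 CPM (log2 fold change 0.31, adjusted p = 0.188). In both all CSF1 OE mice lay above all controls. Mafg, another small MAF gene, had the lowest value of the list, a log2 fold change of -0.10 (adjusted p = 0.804 in edgeR), which was 0.13 with the range term.

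**Figure D5:**
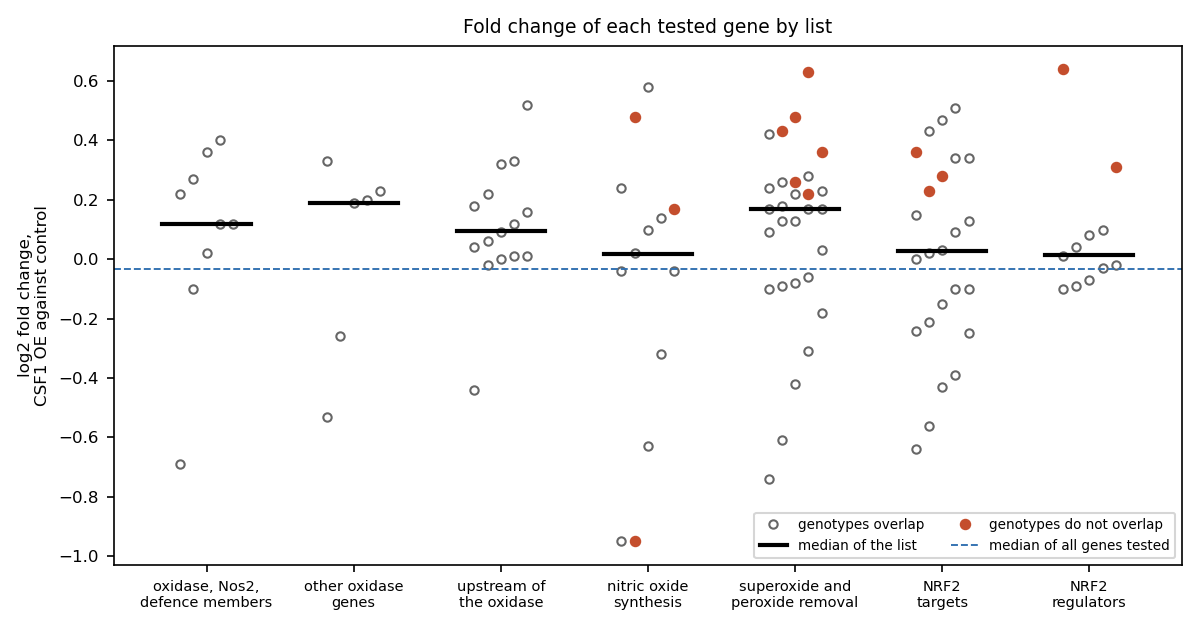
Log2 fold change (y axis, CSF1 OE against control, edgeR) of each tested gene of the 9 and of the 6 other lists (x axis), filled where the 4 CSF1 OE and 4 control libraries did not overlap. Black lines are the medians of the lists, from 0.01 to 0.19, and the dashed line is the median of all 13407 genes, -0.03. Filled points were found in 4 of the lists and not among the 9 genes, and no point was called.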

How the data were processed

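A single library per mouse was sequenced from bead-enriched CD11b+ cells, with 4 mice of each genotype, and genotypes were taken from the labels. According to the study's methods and the submitters' processing notes, the authors mapped reads to mm10 with Bowtie 1.0.0 and made the deposited expected counts per gene with RSEM 1.2.7. The authors also deposited normalized values, a signal on the count scale equal to the expected counts divided by 1 size factor per library. The library kit was TruSeq v2, and the strand setting and the annotation were not given in the sources used here. The study called differential expression with EBSeq and the same fold limits of 0.7 and 1.43, and its columns of comparison results were not used.

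Expected counts were rounded to whole numbers. Genes that passed filterByExpr were tested two-sided in R 4.3.3 with edgeR 4.0.16 (TMM, glmQLFit, glmQLFTest) on genotype alone, with Benjamini-Hochberg adjustment over all genes tested, and every adjusted p is from this fit unless another is named. CPM used TMM-scaled library sizes, and log2 CPM a prior count of 2. The common biological coefficient of variation was 0.228, and in simulated data of this design with 200 genes changed by a fold of 2, edgeR recovered 59% of them and 3.28% of its calls were false. Ratios between partner genes were tested by exact permutation over 70 assignments and adjusted over the 4 ratios. Alternatives were DESeq2 1.42.0, upper-quartile factors, no filter, at least 10 counts in every library, a further edgeR fit with a covariate for animal numbers 1931 to 1936 against the rest, limma 3.58.1 on log2 of the normalized values plus 1, and each mouse left out in turn. Positions and exon lengths are from GENCODE M21, in which 95.2% of the symbols were found, and promoters are from RefSeq. No protein sequence was used here.

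The genes, lists, tests and alternatives were chosen with earlier results of these data known. Named beside the 9 genes were the called genes of each list, its largest rise and fall, every gene at an unadjusted p under 0.05 without overlap, the partner genes of the ratios and Keap1. A gene that this rule would name is not reported here. Msrb1, without overlap at a larger p, was named after its values were seen. Samples are separate mice. In edgeR the p-values set the difference between genotypes against the variation between mice, which is estimated with the help of all genes tested. For the ratios they set it against reassigned genotypes.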

Additional observations from a re-analysis of the deposited data

Results flagged for a closer look

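In 76 groups of 4 mice, the 9 genes and the other genes named were checked for 1 library lying far from the remaining 3 of its genotype, by Dixon's test at its critical value of 0.829, and 3 such libraries were found, about the number that chance gives at this limit. Ncf1 was at 317 CPM in control mouse 1934, below the other 3 controls, which lay between 529 and 568 CPM. Glrx was at 20.0 CPM in control mouse 1827, above 3 controls within 18.6 to 18.7 CPM, so that the distance was small in absolute terms. Esd was at 55.8 CPM in CSF1 OE mouse 1936, above 3 mice within 51.3 to 51.6 CPM. Without mouse 1934 the log2 fold change of Ncf1 was 0.08.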

How the results depend on the processing

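With 4 mice per genotype and the spread found here, differences as small as those of most of the 9 genes could not be told from 0, and their intervals give what the data allow. The 0 calls among the 9 genes held under 15 of 16 alternatives, and with the term for the range of animal numbers there were 2 (Rac2 and Nos2).

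The number of genes called overall was far less stable than the 59 reported. It was 416 with DESeq2, 19 with upper-quartile factors, 105 with limma on the authors' normalized values, 1274 with the term for the range of animal numbers, and between 3 (without 1872 or 1874) and 164 (without 1827) with 1 mouse left out. With 2 alternatives added after the data had been seen it was 0 when libraries were scaled by the microglia markers (with 4.8% of genes at an unadjusted p under 0.05) and 166 without both mouse 1934 and mouse 2019. The cause was not tested. At an unadjusted p under 0.05 were 5 of the 9 genes with the range term, 1 to 3 with 1 mouse left out (3 without 1827: Rac2, Nos2 and Hvcn1), 2 with microglia scaling and 2 without both mice.

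In the other lists, DESeq2 called Nos3 in nitric oxide synthesis, Maff among the regulators of NRF2 and Prdx4 in peroxide removal, 1 gene in each. Limma on the normalized values called 1, Prdx4, and leaving out 1 mouse called 0 to 1 gene of that list (Prdx4 without 1827). The range term called 4 genes in nitric oxide synthesis, 2 in peroxide removal, and 1 in each of the lists of NRF2 targets (Gsta4), NRF2 regulators (Maff) and genes upstream of the oxidase (Arhgdib).

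The direction turned for 5 genes and 1 ratio, all with small differences. Keap1 was at -0.0047 with upper-quartile factors and from -0.0336 to 0.0724 with 1 mouse left out. Mafg was at 0.1296 with the range term and from -0.1993 to 0.0227 with 1 mouse left out. Ncf4 was from -0.0284 (without 1934) to 0.2701 with 1 mouse left out and -0.0829 without both mice, Ncf1 at -0.0015 without both, and Nfe2l2 at -0.1252 without both and from -0.0592 to 0.1569 with 1 mouse left out. The median log2 fold change of 5 of the 6 other lists also took both signs, from -0.16 to 0.19 in nitric oxide synthesis, -0.09 to 0.28 upstream of the oxidase, -0.07 to 0.16 in NRF2 targets, -0.04 to 0.27 in the oxidase family and -0.0074 to 0.0649 in NRF2 regulators, while in peroxide removal it stayed between 0.11 and 0.22. The log2 ratio of Ncf4 to Ncf1 ran from -0.1386 to 0.0148 (without 1872). No paired analysis was possible because the labels number animals and give the genotypes no shared replicate numbers.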
